A study of Mus musculus with 8 samples.

Results

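CC chemokines are small secreted proteins, named for a pair of adjacent cysteines, that draw leukocytes into tissue through G protein-coupled receptors. Ligands of the receptor CCR2 (Ccl2, Ccl7 and Ccl12) call monocytes out of the bone marrow and into the injured heart. Ccl3, Ccl4 and Ccl5 act on monocytes, macrophages and T cells, the related Ccl6 and Ccl9 act through CCR1, and Ccl17 and Ccl22 act on T cells through CCR4. These 10 genes were taken as listed, by the RefSeq transcript of their probes, out of 20141 genes with a symbol and a probe on the array. Earlier results of these data were known when the genes were listed, so that their counts are a description of this family.

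Ventricles were taken from 8 male C57BL\6 mice 24 hours after surgery. In 4 mice the anterior interventricular artery had been permanently occluded (MI mice), and 4 mice had the same operation without ligation (sham-operated mice). Both groups therefore carried the surgery itself, and the sham-operated mice are not unoperated controls. Whole ventricles were used, so that infarcted and spared muscle were measured together. Total RNA of each mouse was hybridized to 1 array in 1 colour, and values are given as normalized log2 intensities, on which a difference of 1 is a doubling. A single slide held the 8 arrays, with replicates 1 and 2 of both groups in the first of its 2 rows. Between 57.6% and 65.6% of the probes of an array were well above background, and correlations between arrays of the same group were between 0.990 and 0.995. Precision is limited by having 4 arrays per group.

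Of the 10 CC chemokines, 9 were well above background and unsaturated on all 8 arrays, each with 1 probe. In MI mice 7 of the 9 were called higher (fold over 2 and adjusted p under 0.05 in limma) and 0 were called lower, with 0 lower at an unadjusted p under 0.05 as well. Over all 34038 retained probes 3.07% were called higher and 0.405% lower. For all 9 genes the lowest MI value exceeded the highest sham value, which held for 8.44% of the probes measured in all mice. The median log2 fold change over all retained probes was 0.12. In these ventricles more cells of a type and more RNA per cell cannot be told apart.

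**Figure D1:**
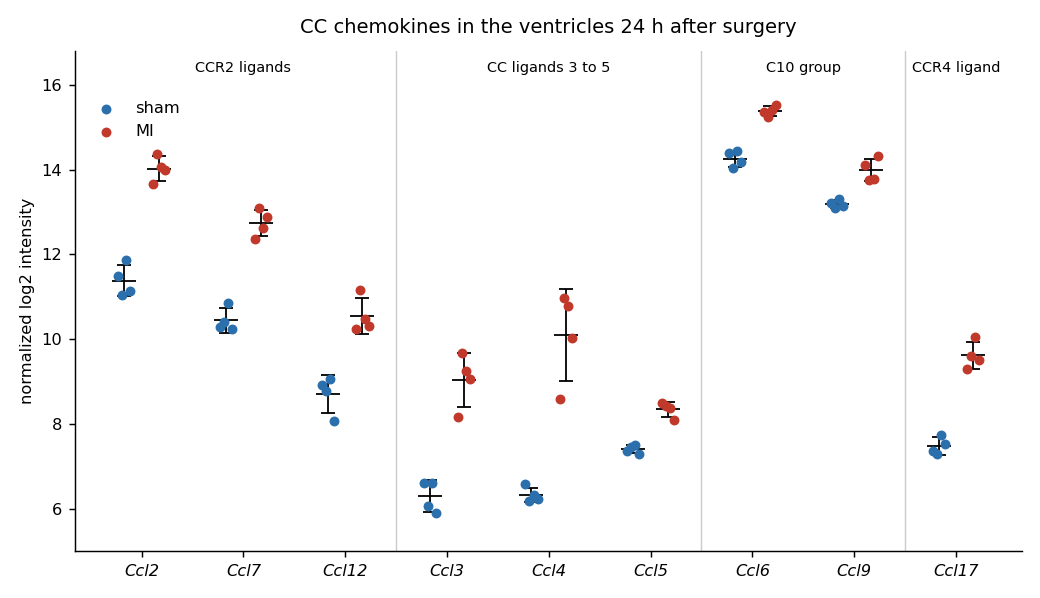
Normalized log2 intensity of the 9 measured CC chemokines (points, 1 per mouse; bars, mean ± SD of 4 mice) in sham-operated and MI mice, grouped by kind of ligand. The MI mice lie above the sham-operated mice for each gene, and the widest spread is that of Ccl4 in MI mice, from 8.60 to 10.98; levels of different genes come from different probes and are not comparable.

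The genes lie in clusters, which is why their order is given. In the RefSeq annotation of GRCm38.p6, Ccl2 and Ccl7 are neighbors on chromosome 11, and Ccl11 alone lies between Ccl7 and Ccl12. Farther along, Ccl5, Ccl9, Ccl6, Ccl3 and Ccl4 follow each other with 0 other protein-coding genes between them, and the annotated spans of Ccl3 and Ccl4 overlap. On chromosome 8, Cx3cl1 lies between Ccl22 and Ccl17. A RefSeq sequence of the 250 bases before the gene start was at hand for 6 of the 10 genes. It is printed for 3 of them, because these hold the motifs found and differ in their response: Ccl12 of the CCR2 ligands, Ccl9 with the smallest difference, and Ccl17 of the CCR4 ligands. They are chr11:82101595-82101844 (plus strand), chr11:83578637-83578886 (minus strand) and chr8:94810203-94810452 (plus strand), written 5′ to 3′ up to the last base before the start, with motif matches in capitals.
Ccl12: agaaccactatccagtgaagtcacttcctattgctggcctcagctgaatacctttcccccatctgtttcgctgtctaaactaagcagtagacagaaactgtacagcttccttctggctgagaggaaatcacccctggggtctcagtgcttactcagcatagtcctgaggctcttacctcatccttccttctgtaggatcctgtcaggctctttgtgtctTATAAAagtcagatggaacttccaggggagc
Ccl9: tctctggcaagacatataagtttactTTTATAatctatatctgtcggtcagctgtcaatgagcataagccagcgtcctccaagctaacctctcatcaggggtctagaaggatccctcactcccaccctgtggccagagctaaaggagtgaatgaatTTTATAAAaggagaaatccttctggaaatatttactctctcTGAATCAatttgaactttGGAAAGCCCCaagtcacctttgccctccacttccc
Ccl17: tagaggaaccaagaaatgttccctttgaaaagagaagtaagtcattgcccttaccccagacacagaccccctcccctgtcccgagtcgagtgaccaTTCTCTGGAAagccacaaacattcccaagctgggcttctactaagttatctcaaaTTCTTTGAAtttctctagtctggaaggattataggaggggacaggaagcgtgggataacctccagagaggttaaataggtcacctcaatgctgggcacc

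Both strands were searched for 8 motifs. A TATA box (TATAAA) was found 31 to 26 bases before the start of Ccl12, and also in Ccl9, where 2 of its 3 matches overlap. This motif was in 12.4% of all 32851 promoters of the same length. Ccl9 also held a match to the NF-kB consensus, 35 to 26 bases before the start, and to AP-1 (TGANTCA), which were in 3.90% and 6.75% of all promoters. Ccl17 held a STAT motif (TTCNNNGAA) and a STAT6 motif (TTCNNNNGAA), 99 to 91 and 154 to 145 bases before the start, present in 7.02% and 5.85% of all promoters. Neither C/EBP (TTGCNNAA, 9.56% of all promoters), ISRE (GAAANNGAAA, 2.98%) nor the GC box (GGGCGG, 32.7%) was found in these 6 windows, and Ccl3, Ccl6 and Ccl22 held none of the 8 motifs. These matches describe letters in the windows, not bound sites.

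All 3 CCR2 ligands were up-regulated in MI mice. Ccl2, the main attractant of inflammatory monocytes, had values of 13.66, 14.38, 14.05 and 14.00 in MI mice 1 to 4 and 11.49, 11.05, 11.86 and 11.14 in sham-operated mice 1 to 4. The lowest MI mouse lay 1.79 above the highest sham-operated mouse. The log2 fold change was 2.64 ± 0.23 (SE, n = 4 and 4), or 6.23-fold (95% confidence interval, 4.51 to 8.60), with an adjusted p of 7.25e-09. For fold changes, the SE, interval and p-value come from limma, which draws the variance of a probe toward that of all probes. The Ccl2 probe was printed on 10 spots per array, with an SD between spots of 0.0403 to 0.0666, which is technical noise within an array.

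Ccl7, which shares the receptor CCR2 and also acts on CCR1 and CCR3, had values of 12.37, 13.10, 12.63 and 12.87 in MI mice against 10.28, 10.40, 10.86 and 10.24 in sham-operated mice. It was 4.93-fold higher, with a log2 fold change of 2.30 ± 0.22 (SE) and an adjusted p of 3.92e-08. Ccl12, a CCR2 ligand of rodents, had values of 10.23, 11.16, 10.48 and 10.32 against 8.92, 8.77, 9.07 and 8.06. It was 3.59-fold higher, with a log2 fold change of 1.84 ± 0.24 and an adjusted p of 7.03e-06. Replicate 4 was the lowest sham-operated mouse for Ccl7 and Ccl12, and replicate 3 was the highest for all 3 genes. Under 75th percentile scaling replicate 2 was the highest for Ccl7 and Ccl12, and replicate 1 the lowest for Ccl7.

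Ccl3, Ccl4 and Ccl5 differed in their response, with Ccl4 and Ccl3 called and Ccl5 not. In the values used here, Ccl4 had the largest fold change of the 9 measured genes and the 13th of 15152 genes with a retained probe. Its values were 8.60, 10.98, 10.79 and 10.03 in MI mice and 6.57, 6.18, 6.31 and 6.22 in sham-operated mice. The sham-operated mice lay within 0.39 of each other, whereas the MI mice spread over 2.39, with MI mouse 1 far below the others. Its log2 fold change was 3.78 ± 0.33 (SE), or 13.7-fold (95% confidence interval, 8.59 to 22), with an adjusted p of 9.13e-09.

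Ccl3, whose product forms heterodimers with that of Ccl4, had values of 8.17, 9.68, 9.25 and 9.07 in MI mice and 6.61, 6.06, 6.61 and 5.89 in sham-operated mice. MI mouse 1 was again the lowest, but it stayed above all sham-operated mice. This gave a log2 fold change of 2.75 ± 0.26, or 6.72-fold, with an adjusted p of 4.19e-08. Both genes were dim in sham-operated mice, and the size of their change depended on the constant added before the logarithm. With the larger constants of a separate spike-in fit, the log2 fold changes were 2.27 for Ccl4 and 1.42 for Ccl3, both still called.

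Ccl5, a product of T cells and platelets among others, was not called. Its values were 8.48, 8.43, 8.37 and 8.09 in MI mice and 7.36, 7.45, 7.50 and 7.29 in sham-operated mice. The groups did not overlap and both were narrow, but the log2 fold change of 0.94 ± 0.20 (1.92-fold, adjusted p = 0.00276) was below the 2-fold threshold. Without MI mouse 4 it was 1.02 and passed, whereas it was 0.51 with the separate spike-in fit and 0.63 with normexp background correction.

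Ccl6 and Ccl9, produced by macrophages and other myeloid cells, had log2 fold changes near the 2-fold threshold. Ccl6 had values of 15.37, 15.24, 15.40 and 15.52 in MI mice and 14.39, 14.04, 14.45 and 14.18 in sham-operated mice. It was 2.17-fold higher (log2 fold change 1.12 ± 0.20, adjusted p = 0.000436), just past the threshold, and 75th percentile scaling left it just under (log2 fold change 1.00). Ccl9 had values of 14.10, 13.76, 13.78 and 14.32 against 13.22, 13.09, 13.30 and 13.14. Its 1.75-fold difference (log2 fold change 0.81 ± 0.21, adjusted p = 0.0133) was not called.

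Of the CCR4 ligands only Ccl17 could be compared. It had values of 9.29, 9.61, 10.05 and 9.52 in MI mice and 7.36, 7.29, 7.75 and 7.53 in sham-operated mice, with tight groups far apart. The log2 fold change was 2.14 ± 0.22, or 4.40-fold, with an adjusted p of 8.53e-08; with the separate spike-in fit it was 1.39. The probe of Ccl22 was not well above background on any of the 8 arrays. Its intensities before normalization were 2.47 to 6.16 in MI mice and 2.27 to 2.58 in sham-operated mice, so no fold is given. On the normalized log2 scale it was compared with the lowest probe well above background on the same array. It lay below that probe on every array except that of MI mouse 3 (3.61 against 3.51).

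Within each row of the slide, the MI mice lay above the sham-operated mice for all 9 genes. For Ccl4 the log2 fold change was 3.42 in the first row and 4.14 in the second row, and for Ccl2 it was 2.75 and 2.53. With 2 mice of each group in a row these values have no test.

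The MI mice did not keep the same order for all genes. MI mouse 1 was the lowest for 6 genes (Ccl2, Ccl7, Ccl12, Ccl3, Ccl4 and Ccl17), and MI mouse 2 was the highest for the first 5 of these. With 75th percentile scaling the same held: it placed MI mouse 1 lowest for these 6 genes. For Ccl6 and Ccl9, MI mouse 2 was the lowest and MI mouse 4 the highest, but this order depended on the scaling, since MI mouse 2 was the highest for Ccl6 under 75th percentile scaling. The distance between the lowest and highest MI mouse was 2.39 for Ccl4, 1.51 for Ccl3 and 0.28 for Ccl6, and 3.03, 2.16 and 0.50 under 75th percentile scaling. The interleukin gene Il1b, which encodes an inducer of these chemokines, was also lowest in MI mouse 1 (9.36) and highest in MI mouse 2 (11.93), and the leukocyte gene Ptprc was lowest in MI mouse 1 (7.77). The inducer genes Tnf and Il6 were both highest in MI mouse 3 (7.47 and 12.25). Tnf was lowest in MI mouse 4 (6.39) and Il6 in MI mouse 1 (10.76). These orders were taken from the main values alone. The part of these genes in the order of the mice was not tested.

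**Figure D2:**
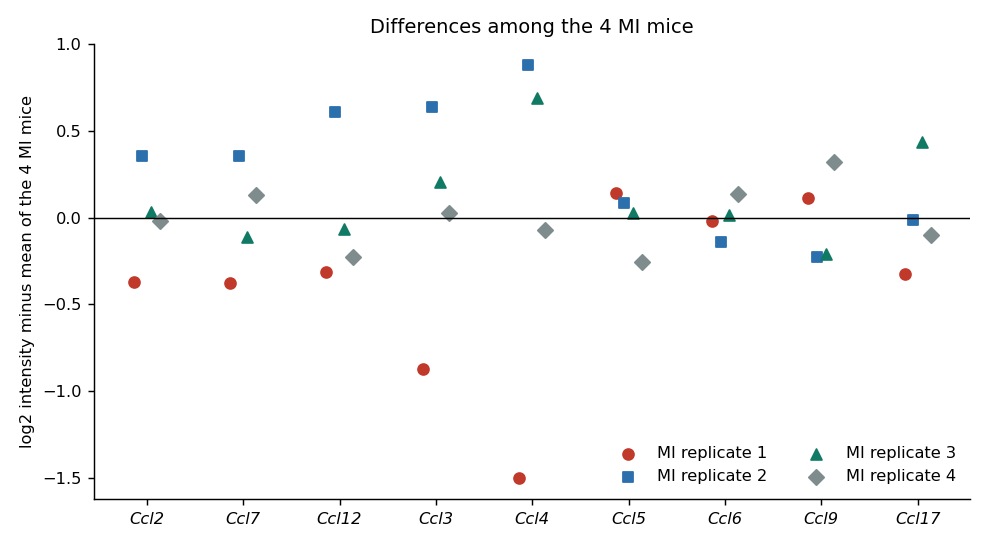
Log2 intensity of each CC chemokine in each of the 4 MI mice minus the mean of the 4 (symbols, 1 per mouse). MI replicate 1 is the lowest for 6 of the 9 genes and lies 1.5 below the mean for Ccl4, while the range of the 4 mice is 0.28 for Ccl6 (0.50 under 75th percentile scaling).

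Related ligands were compared directly, by the difference of their log2 values in each mouse, which a scale factor between arrays cannot change but an additive constant can. Of 6 pairs compared, 4 had unequal changes (exact two-sided permutation test over 70 splits, adjusted p = 0.0429 for each, and 0.0286 is the smallest unadjusted p). Ccl2 rose by 0.80 more than Ccl12, Ccl4 rose by 1.03 more than Ccl3 and by 2.84 more than Ccl5, and Ccl6 rose by 0.32 more than Ccl9, all on the log2 scale. Ccl2 and Ccl7 differed by 0.34 (exact adjusted p = 0.0686) and Ccl7 and Ccl12 by 0.46 (exact adjusted p = 0.114), which did not pass. With the separate spike-in fit all 6 pairs passed (exact adjusted p = 0.0286 for each), and the excess of Ccl4 over Ccl5 was 1.76. With any mouse left out none of the 6 pairs passed over the 35 splits that remained (smallest exact adjusted p = 0.0571). The 4 pairs kept their direction and their groups stayed apart in all 8 cases.

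The CC chemokines were also set against Ptprc, which encodes CD45 of the leukocyte surface; this comparison was chosen after the values were seen. Ptprc itself was higher in MI mice by 1.1 ± 0.21 (log2, SE; adjusted p = 0.000906), with values of 7.77, 8.22, 8.18 and 8.40 against 7.22, 7.06, 7.15 and 6.75. In the same mice 6 genes rose by more than Ptprc, with an exact two-sided permutation p of 0.0429 for each, adjusted over 9 genes. The excess was 2.68 for Ccl4, 1.65 for Ccl3, 1.54 for Ccl2, 1.20 for Ccl7, 1.04 for Ccl17 and 0.74 for Ccl12 on the log2 scale. With the separate spike-in fit it was 1.73 for Ccl4 and 0.87 for Ccl3, and that of Ccl2, 2.01, was the largest. The 3 other genes did not pass: Ccl6 differed from Ptprc by 0.02 (exact adjusted p = 0.914), Ccl5 by -0.16 (exact adjusted p = 0.643) and Ccl9 by -0.29 (exact adjusted p = 0.257), which does not show that they changed alike. With the separate spike-in fit Ccl6 passed (0.57, exact adjusted p = 0.0367) and Ccl9 turned to 0.25 (exact adjusted p = 0.193). Without MI mouse 1, Ccl9 passed with -0.45 (exact adjusted p = 0.0367). Without MI mouse 2, or without any of the sham-operated mice, the count fell to 0, with 35 splits remaining. In those cases the 6 genes kept their direction and their groups stayed apart.

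**Figure D3:**
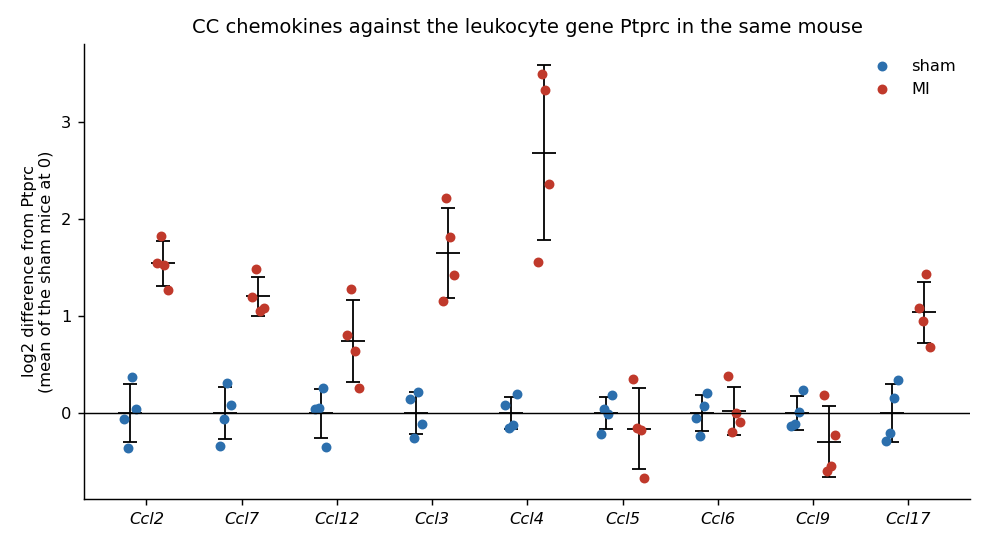
Log2 intensity of each CC chemokine minus that of Ptprc in the same mouse, with the mean of the sham-operated mice set at 0 (points, 1 per mouse; bars, mean ± SD of 4 mice). The MI mice stand above the sham-operated mice for 6 genes, by 2.68 on average for Ccl4, and overlap with them for Ccl5, Ccl6 and Ccl9.

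Among the receptors, 13 of 15 genes were retained, and 5 were called higher and 0 lower in MI mice, with 8 higher and 1 lower at an unadjusted p under 0.05 in limma. Over all retained probes 3.07% were called higher and 0.405% lower. At that unadjusted threshold 14.8% were higher and 5.07% lower. The median log2 fold change of the list was 0.81, beside 0.12 over all probes. Ccr2, the receptor of Ccl2, Ccl7 and Ccl12, had values of 8.11, 8.04, 8.26 and 8.68 against 7.37, 7.23, 7.32 and 6.57 (1.15 ± 0.23, adjusted p = 0.00112). MI mouse 4 was the highest and sham-operated mouse 4 the lowest, whereas MI mouse 2 was the highest for its ligands.

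Ccr1, a receptor of Ccl3, Ccl5, Ccl6 and Ccl9 on neutrophils and monocytes, was well above background on 4 MI arrays but only 1 sham array, so that it passed the detection filter through its MI arrays. Its values averaged 6.73 after MI and 4.35 after sham operation, most of the latter not well above background, and no fold is drawn from it. Without Ccr1, 4 receptors were called. The related Ccr1l1 (2.37) was well above background on 3 sham arrays, and Ccr7, which guides dendritic cells to lymph nodes, was higher by 1.14 (adjusted p = 0.00077). Ccr4, the receptor of Ccl17, and Ccr6 were not well above background on enough arrays. The scavenging receptors Ackr1 (0.83) and Ackr2 (0.81) had adjusted p-values under 0.05 but stayed under 2-fold, and Ccrl2 had a log2 difference of -0.60 (adjusted p = 0.174). The receptor calls depended on the processing, since none of the 5 passed with the separate spike-in fit and 1 passed with normexp background correction.

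The other CC chemokines gave no call. Of 13 genes, 6 were retained, and 0 were called in limma in either direction, beside 3.07% of all probes called higher and 0.405% lower. At an unadjusted p under 0.05, 2 were higher and 2 lower, beside 14.8% and 5.07% of all probes. Ccl11, an eosinophil attractant that lies between Ccl7 and Ccl12, had a log2 difference of 0.43 (adjusted p = 0.32), and Ccl8, the neighbor on the other side of Ccl12, -0.63 (adjusted p = 0.148). Ccl19, a ligand of CCR7, had a difference of 0.63 (adjusted p = 0.235) and was called only without MI mouse 2. Ccl24 had 0.61 (adjusted p = 0.187), Ccl25 -0.31 (adjusted p = 0.46) and Ccl27a -0.60 (adjusted p = 0.0815). The groups stayed apart for Ccl27a alone, whose highest MI value (10.55) lay below the lowest sham value (10.78). The share of all probes apart in that direction is not given, so nothing is drawn from it.

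**Figure D4:**
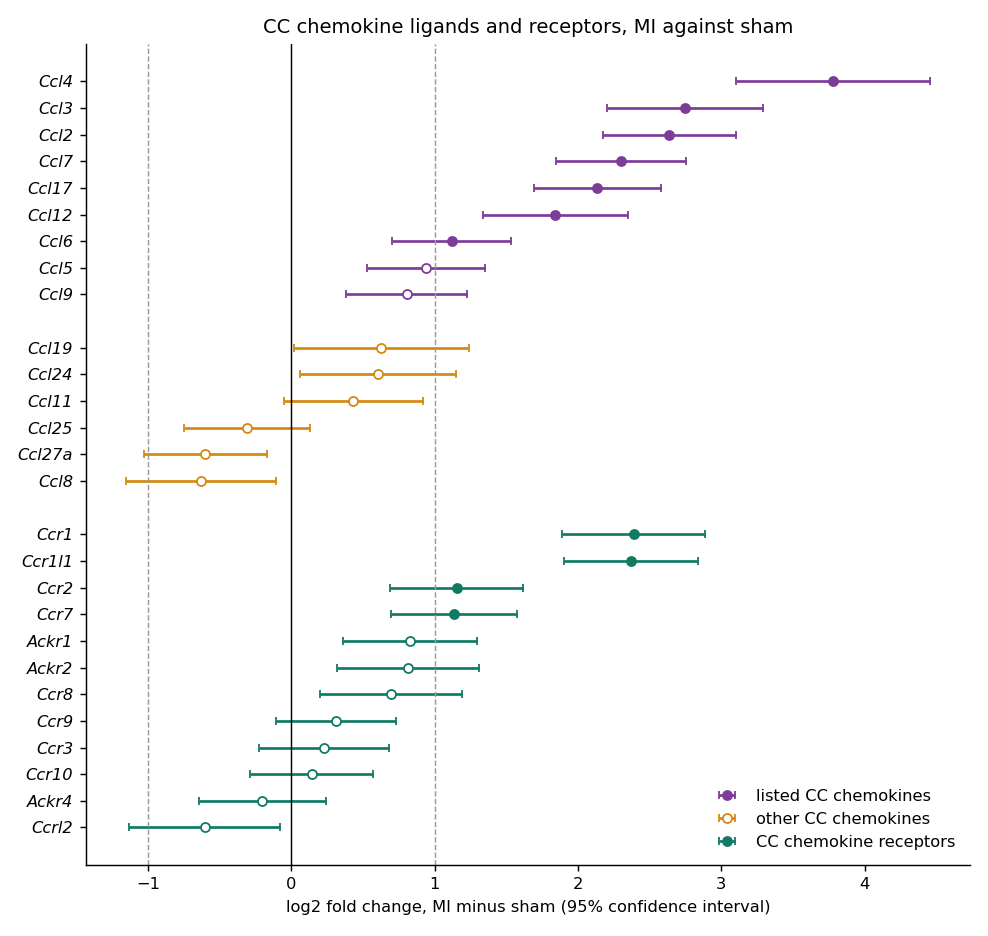
Log2 fold change of MI against sham-operated mice for the 9 measured CC chemokines, the 6 other CC chemokines and 12 of the retained receptors (points, filled where called; bars, 95% confidence intervals not adjusted for the number of probes; dashed lines, 2-fold). The other CC chemokines lie between -0.63 and 0.63, whereas Ccl4 reaches 3.78 and 4 of the receptors shown are called, of which Ccr1 was well above background on only 1 sham array.

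Of the genes that signal below these receptors, 28 of 30 were retained, and 8 were called higher (Fgr, Rac2, Tiam2 and Pik3r5 among them) and 0 lower. Fgr, a kinase of the Src family in myeloid cells, had the largest log2 fold change in the list (1.94 ± 0.21, adjusted p = 2.07e-07), and the list median was 0.56. Of the inducers and NF-kB genes, 25 of 27 were retained and 9 were called higher (Il6, Il1b, Tnf, Tlr2, Nfkbie, Irf5, Irf7, Tnfaip3 and Relb) and 0 lower, with a list median of 0.79. Of all retained probes 3.07% were called higher and 0.405% lower, and their median log2 fold change was 0.12. The study named several genes of these 2 lists from the same mice, so that the lists are not independent evidence of their direction. Il1b had values of 9.36, 11.93, 11.37 and 11.14 in MI mice and 7.44, 7.30, 8.70 and 7.46 in sham-operated mice (log2 fold change 3.22 ± 0.37, adjusted p = 6.81e-07). Tnf, encoding tumor necrosis factor, had values of 6.54, 7.35, 7.47 and 6.39 against 5.01, 5.17, 5.57 and 5.47 (1.63 ± 0.24, adjusted p = 4.06e-05). Il6 had the largest log2 fold change in the list, 3.35 ± 0.36 (adjusted p = 2.30e-07). At an unadjusted p under 0.05, 17 signalling genes and 16 inducer and NF-kB genes were higher and 0 were lower, beside 14.8% and 5.07% of all probes. Among these 16, Rel was well above background on 4 MI arrays but only 1 sham array. With the separate spike-in fit the lists held 1 and 2 calls.

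Markers of leukocytes were counted by type. Over all retained probes 3.07% were called higher, and 14.8% were higher at an unadjusted p under 0.05. Of 7 retained neutrophil markers, 5 were called higher, with a list median of 2.82, and the summed intensity was 251085 to 369427 in MI mice and 76352 to 121038 in sham-operated mice. Retnlg, a neutrophil granule gene, was higher by 4.24 (adjusted p = 3.20e-11), but Csf3r was not (0.08). Of 8 retained monocyte and macrophage markers only Cd14 was called (2.25, adjusted p = 1.34e-06). These 8 had a median of 0.17 and summed intensities of 16942 to 24193 in MI mice and 12995 to 20123 in sham-operated mice. The list held 10 genes, but Cd68 and Ly6c2 had no probe by RefSeq accession, so that these counts do not cover them. Of 5 retained dendritic cell markers (6 listed) Itgax was called (1.56), with sums of 575 to 882 against 333 to 432. Such sums add different probes and mostly follow the brightest of a list. In MI mice the brightest neutrophil marker was S100a9 (mean 17.13), and the brightest monocyte and macrophage marker was Csf1r (mean 13.14). Of 4 retained T and NK cell markers (8 listed) and 4 B cell markers 0 were called in limma. Of the T and NK cell markers 1 was higher at an unadjusted p under 0.05, and of the B cell markers 3. Among these 3, Ms4a1 was well above background on 3 MI arrays but only 1 sham array, so that it passed the detection filter mainly through its MI arrays. The part of these cell types in the chemokine changes was not tested.

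The samples held heart muscle: the cardiomyocyte markers were bright in both groups, with 0 of 6 called in limma and a median of -0.06. At an unadjusted p under 0.05, 1 of them was lower. Markers that set ventricle against atrium were not examined. Over all retained probes 5.07% were lower at that unadjusted threshold. The reference gene Gapdh differed by 0.15 ± 0.21 (adjusted p = 0.768).

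For the called gene with the largest fold in each group of ligands, the 2 nearest genes were sought by the root mean square difference of their log2 values from the sham mean over 8 mice. This is a description, and nearness rests on the groups as well as on the mice within them. Nearest to Ccl2 were Lilrb4a (root mean square difference 0.177) and Inhba (0.225). Nearest to Ccl4 were Cxcl2 (0.349), which encodes a neutrophil attractant, and Acod1 (0.369), which encodes the itaconate-producing enzyme of activated macrophages. Nearest to Ccl6 were Wdr1 (0.0595) and Sh3bp2 (0.0887), and nearest to Ccl17 were Enah (0.137) and Socs3 (0.15).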

How the data were processed

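Ventricle RNA of MI mice (n = 4) and sham-operated mice (n = 4) was measured on 8 Agilent mouse SurePrint G3 8x60K arrays (1 colour, 1 slide, 1 scan). Per the file headers, the deposited intensity is the processed signal of Feature Extraction 11.0.1.1, with local background subtracted and spatial trends removed. The deposited log2 values were made by the authors from spots well above background, with limma and vsn on spike-in probes. Setting these log2 values against the scanner intensities gave the scale and the additive constant of each array (3.16 to 19.6), which were applied here to all spots without outlier flags; spots of a probe were averaged. Larger constants (166 to 256) came from a separate fit of the vsn likelihood to the spike-in spots, which holds back the change of dim probes and was used as an alternative.

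Only probes well above background on 4 or more arrays were retained, without control probes. Symbols came from RefSeq accessions (GRCm38.p6), and the brightest retained probe stood for a gene; 26576 of 55681 probes had a symbol. The headers give no age of the mice. MI and sham-operated mice were compared with limma 3.58.1 (R 4.3.3) without covariates, with Benjamini-Hochberg adjustment over 34038 probes. The test was tried on simulated data. For differences between genes, two-sided exact permutation tests over 70 splits were used (Python 3.11.15, scipy 1.17.1). The labels name separate mice as replicates. Alternatives were other normalizations, filters and tests, blocks for replicate number and array row, and each mouse left out. Marker lists, the other lists and the 10 genes were chosen with earlier results of these data known, and the promoter motifs after a first look at the windows. Named genes were all members, the called gene with the largest change in each list and direction, receptors Ccr1, Ccr2 and Ccr4, Tnf, Il1b, the other CC chemokines, the nearest genes, Ptprc and Gapdh; further genes were named after their values were seen. The authors' fold changes were not used. A few genes of the receptor and signalling lists are counted but not reported here by name.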

Additional observations from a re-analysis of the deposited data

Results flagged for a closer look

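Of 72 groups of 4 mice examined, 1 held a mouse far from the others. Il1b in sham-operated mouse 3 was at 8.70, while the other sham-operated mice were between 7.30 and 7.46. The gap to the nearest mouse was 0.882 of the range of the group, above the 95% critical value of Dixon's test for 4 samples. Chance alone flags about 1 of 20 groups.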

How the results depend on the processing

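For Ccl2, Ccl7, Ccl12, Ccl3, Ccl4, Ccl17 and Ccl9, 20 alternatives each left the direction and the call as reported. The log2 fold change ranged from 2.52 to 2.80 for Ccl2, 2.14 to 2.44 for Ccl7, 1.46 to 1.96 for Ccl12, 1.42 to 3.04 for Ccl3, 2.27 to 4.28 for Ccl4, 1.39 to 2.24 for Ccl17 and 0.68 to 0.88 for Ccl9. Ccl6 lost its call with 75th percentile scaling (1.00) and Ccl5 gained one without MI replicate 4 (1.02; range over the alternatives 0.51 to 1.02), so that between 6 and 8 CC chemokines were called. Over all probes, 1046 were called higher, but 320 with the separate spike-in fit, 438 with normexp correction (on median intensities, with an offset of 50) and 569 with the unmoderated t-test. The share of higher probes among all called was 88.3%, but 72.4% with 75th percentile scaling, which moved the median of all probes to -0.02, and 68.9% with quantile normalization. Receptors called numbered 0 with the spike-in fit, 1 with normexp and 3 when detection on all 8 arrays was required, which leaves out Ccr1 and Ccr1l1. Signalling genes numbered 5 with 75th percentile scaling, 1 with the spike-in fit, 5 with quantile normalization and 3 with normexp, and 5 to 8 with a mouse left out. NF-kB and inducer genes numbered 2 with the spike-in fit, 4 with normexp and 3 with the t-test, under which Il6, Il1b and Tnf were not called. Other CC chemokines called numbered 0 to 1 with a mouse left out. Pairs with unequal change fell from 4 to 0 with each mouse left out, and genes with a change unequal to Ptprc ranged from 0 to 7, over 35 splits. With the spike-in fit, over 70 splits, these counts were 6 and 7. Apart from the detection filter, the cause of each change was not tested. Pairs were not run with normexp.

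The replicate numbers were not taken to pair the mice, since the labels state no pairing and not every correlation of same-numbered mice was over 0.1 (0.238, 0.292, 0.143 and 0.011). Best correlated with their own number were 2 of 4 MI mice and 3 of 4 sham-operated mice, a hint from the data alone, and the permutation tests used no pairing. With the replicate block 7 CC chemokines were called and 1028 probes higher, and the block moved the probes with an adjusted p under 0.05 from 2590 to 4895.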

Other observations

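Among the other marker lists, 1 of 4 platelet markers was called higher in MI mice: Ppbp, which encodes a CXC chemokine precursor of platelets, by 1.08 on the log2 scale (adjusted p = 0.00261), with a list median of 0.73. Of 5 smooth muscle and pericyte markers only Acta2, the smooth muscle actin gene that myofibroblasts also express, was called (1.46, adjusted p = 0.000237), and Pdgfrb differed by -0.02. Of 5 fibroblast markers 0 were called in limma, with a median of -0.38 and 1 lower at an unadjusted p under 0.05. Of 5 endothelial markers 0 were called, with a median of 0.33 and 2 higher at an unadjusted p under 0.05. Over all retained probes 3.07% were called higher, and 14.8% were higher and 5.07% lower at an unadjusted p under 0.05.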
